A study of Zea mays with 54 samples.

Results

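Transcripts of 5 nuclear genes of photosynthetic carbon fixation were followed in maize (Zea mays) roots at low and high phosphate (P) supply. The genes were listed by their B73 v4 identifiers: rbcS Zm00001d052595 and rbcS Zm00001d004894, which encode the Rubisco small subunit, ppc1 (Zm00001d046170), which encodes the C4 phosphoenolpyruvate carboxylase, me3 (Zm00001d000316), which encodes the plastidic NADP-malic enzyme, and pdk1 (Zm00001d038163), which encodes pyruvate, phosphate dikinase. They are 5 of 46430 features in the deposited count tables, and all 5 were found. The files do not pair these identifiers with names, so the names are those given with the list of genes, and no genome coordinates are printed. Roots of 9 genotypes (EP1, F2, F142, F160, SF1, SM1, P024, F7 and P415) were cultured at low P or high P and sequenced as 3 replicates of each genotype and supply, which gave 27 low P and 27 high P libraries. The labels give neither the P concentrations, the plants' age, nor whether a replicate was 1 plant or a pool, so every p-value speaks of the variation among the sequenced samples, which could be technical in part.

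In maize leaves, phosphoenolpyruvate carboxylase fixes bicarbonate in mesophyll cells, NADP-malic enzyme releases carbon dioxide from malate in bundle sheath chloroplasts, and Rubisco fixes that carbon dioxide again. Pyruvate, phosphate dikinase then regenerates the acceptor, phosphoenolpyruvate, in mesophyll chloroplasts. The Rubisco small subunit is encoded by nuclear rbcS genes and the large subunit by rbcL in the plastid genome. Roots in soil do not photosynthesise, and phosphoenolpyruvate carboxylase, malic enzyme and dikinase reactions also serve organic acid and pyruvate metabolism there.

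Between 15585904 and 28733284 counts were obtained in each of the 36 libraries of EP1, F2, F142, F160, SF1 and SM1, which were deposited in 1 table, and between 15830403 and 24821387 in each of the 18 libraries of P024, F7 and P415, deposited in another. Levels are given as the authors' FPKM, read counts scaled to gene length and library total. In the shallowest library a count of 0 allows, taking 3 counts as the limit, up to 0.198 FPKM for rbcS Zm00001d052595, 0.208 FPKM for rbcS Zm00001d004894 and 0.0590 FPKM for ppc1; these limits cover counting error only. The library labelled F7 low P 2 held transcripts typical of P024. Of 58 genes with at least 5 CPM (library-scaled counts) throughout P024 but below 0.2 CPM in the remaining F7 libraries, all 58 were present, with a median ratio to P024 of 0.918. It also held 44 of 64 such genes of P415 at 1 CPM or more (median ratio 0.529), and 35.5% to 42.9% of those of the other genotypes, at median ratios of up to 0.00937. The library labelled F7 high P 1 held 25.9% of the 58 genes of P024 at 1 CPM or more, with a median ratio of 0.00879. It held 21.4% to 37.5% of similar gene sets of the other genotypes. Calls that rest on F7 are given with and without these libraries, below called the doubted F7 libraries. As a check for green tissue, 47 listed symbols of plastid-encoded photosynthesis genes matched 48 features, of which 34 had no count in any library. rbcL was at 0 counts in all 54 libraries and psbA had 7 counts over all libraries. The summed level of the list lay between 0 and 0.484 CPM at low P (median 0.0870 CPM) and between 0 and 0.321 CPM at high P (median 0 CPM), and 0 of the 48 features had enough counts to be tested. Plastid transcripts mostly lack poly(A) tails and the labels do not say how messenger RNA was selected, so these counts are a limited check. In such bulk samples fewer cells of a type and less RNA per cell cannot be told apart. Counting was done upstream, and reads shared by near-identical copies cannot be assigned here: the rbcS genes are close paralogs, me3 has a similar non-photosynthetic plastidic relative, and pdk1 gives both a chloroplast and a cytosolic transcript in maize.

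All 5 transcripts were detected in roots, and their levels per length differed widely. The median over the 54 libraries was 9.69 FPKM for pdk1, 7.77 FPKM for me3, 2.08 FPKM for rbcS Zm00001d052595, 0.540 FPKM for rbcS Zm00001d004894 and 0.0896 FPKM for ppc1. By mean FPKM, pdk1 lay above 83.5% and me3 above 78.7% of the 38865 features with any count, rbcS Zm00001d052595 above 53.4%, rbcS Zm00001d004894 above 41.7% and ppc1 above 36.2%. The enzymes of the malate and pyruvate steps, me3 and pdk1, were above 0 in every library, with lowest values of 2.17 FPKM for me3 and 0.216 FPKM for pdk1. rbcS Zm00001d052595 was at 0 in 1 library, rbcS Zm00001d004894 in 6 and ppc1 in 6. Fewer than 10 counts stood behind the value in 8 libraries for rbcS Zm00001d052595, in 27 for rbcS Zm00001d004894 and in 31 for ppc1. The library F7 high P 1 was the highest of all for both rbcS genes and ppc1. It alone held 19.2% of all counts of rbcS Zm00001d052595, 31.5% of those of rbcS Zm00001d004894 and 51.5% of those of ppc1.

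**Figure D1:**
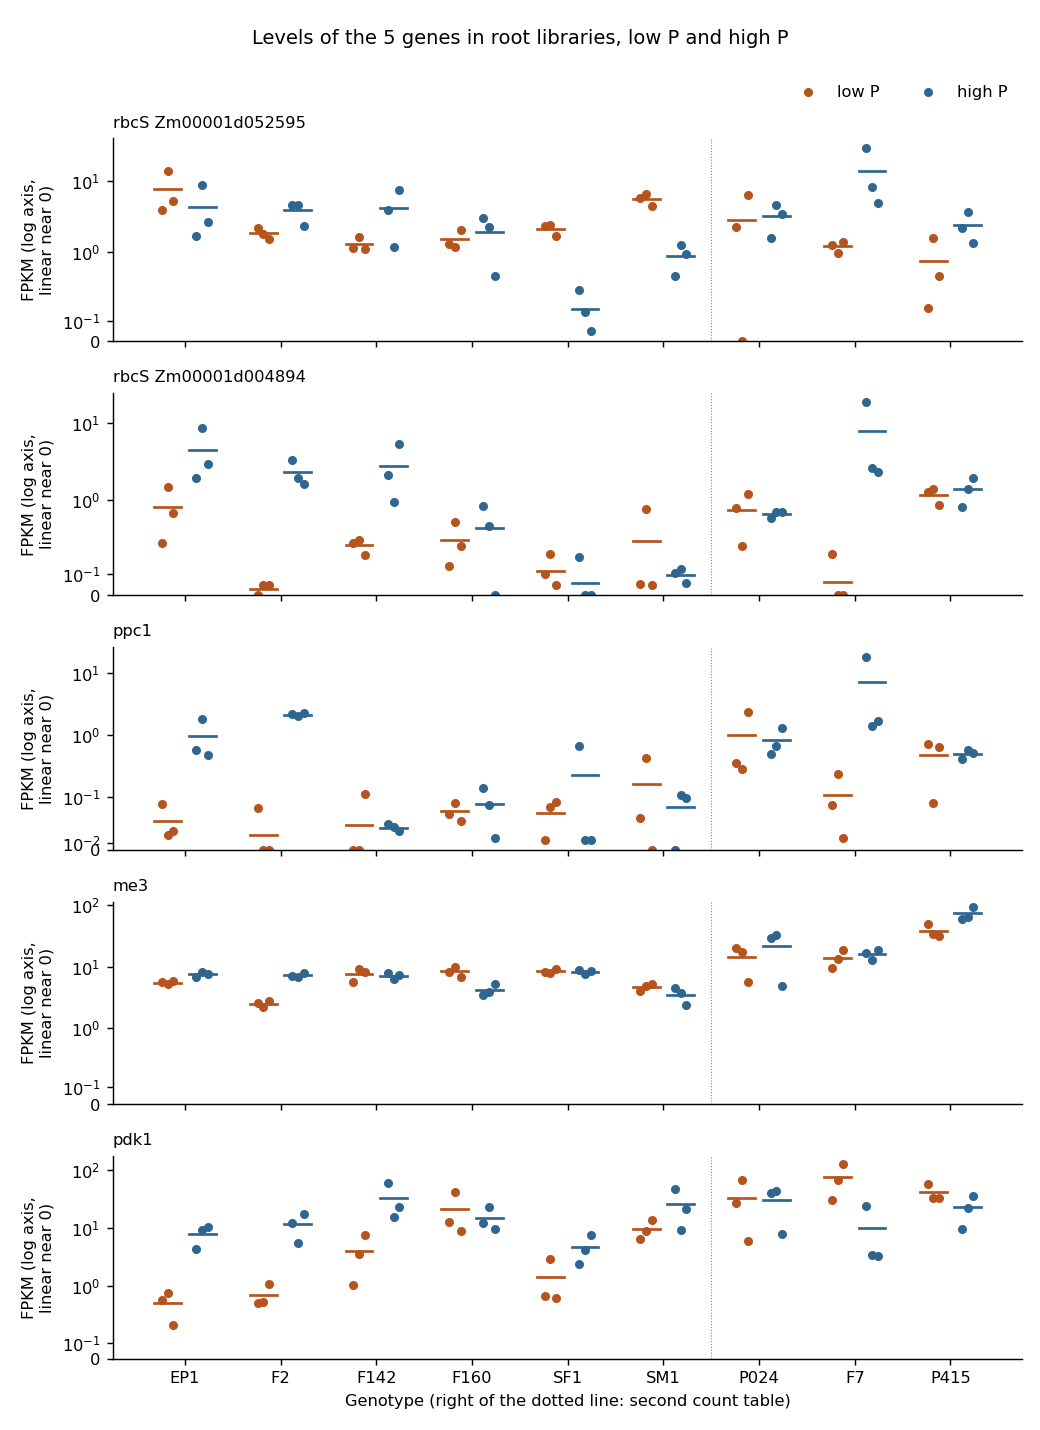
Level of each gene in each of the 54 root libraries (points, FPKM on an axis that is logarithmic and linear near 0), with the mean of 3 libraries as a bar, low P left of high P within each genotype. rbcS Zm00001d052595 is higher at low P in SF1 and SM1, while rbcS Zm00001d004894, ppc1 and pdk1 are lower at low P in EP1 and F2.

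ppc1, the enzyme of the first carbon fixation in C4 leaves, was at or near 0 in the roots of most groups. In EP1, 0.0759, 0.0213 and 0.0273 FPKM were measured at low P, against 0.570, 1.81 and 0.473 FPKM at high P. In F2, it was at 0.0665, 0 and 0 FPKM at low P, against 2.12, 2.003 and 2.22 FPKM at high P. The low P and high P libraries of both genotypes did not overlap, and the 3 high P libraries of F2 lay close together. Here and below, a lack of overlap only describes the values of these genes. The share of all features without overlap was not counted, and an exact permutation test of 3 against 3 cannot go below 0.10. ppc1 fell at low P in EP1, with a log2 fold change of -4.55 ± 0.75 (SE; edgeR quasi-likelihood test, adjusted p = 0.00184), and in F2, with -6.39 ± 0.72 (adjusted p = 0.00128). The fitted fold change of F2 depends on the prior count, since its low P libraries held 5 counts in all against 369 at high P. That is a ratio of 0.0107 per counted read, with a 95% interval of 0.00346 to 0.0252 that covers counting error only. In F7, ppc1 had 0.0741, 0.232 and 0.0175 FPKM at low P, against 17.9, 1.40 and 1.65 FPKM at high P. The F7 groups did not overlap either, and F7 high P 1 stood far above the other high P libraries. ppc1 fell in F7, with a log2 fold change of -6.01 ± 1.34 (adjusted p = 0.0187), or of -5.02 ± 0.61 (adjusted p = 0.000922) without the doubted F7 libraries. The F7 call was lost without F7 low P 1 (adjusted p = 0.0750) or F7 low P 3 (adjusted p = 0.0648), and each of these fits kept the library labelled F7 low P 2; DESeq2 gave it no adjusted p. In P024 and P415, the other genotypes in which ppc1 was tested, it averaged 0.975 ± 1.14 FPKM at low P and 0.815 ± 0.427 FPKM at high P (SD, n = 3 each) in P024, and 0.472 ± 0.343 FPKM at low P and 0.493 ± 0.0847 FPKM at high P in P415. In F142, F160, SF1 and SM1 its counts did not pass the filter on low values. There, group means ran from 0.0363 FPKM in F142 to 0.158 FPKM in SM1 at low P, and from 0.0325 FPKM in F142 to 0.228 FPKM in SF1 at high P, the last resting on SF1 high P 1 with 38 of 40 counts.

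me3, whose product releases carbon dioxide from malate, lay between 2.17 and 9.85 FPKM in the libraries of the first table and changed in 3 genotypes. In F2, me3 was at 2.53, 2.17 and 2.73 FPKM at low P, against 6.91, 6.80 and 7.85 FPKM at high P. In EP1, it was at 5.50, 5.09 and 5.82 FPKM at low P, against 6.77, 7.996 and 7.48 FPKM at high P. F160 went the other way, with 8.27, 9.85 and 6.85 FPKM at low P, against 3.39, 3.80 and 5.15 FPKM at high P. In none of these 3 genotypes did the low P and high P libraries overlap. me3 fell in F2 (log2 fold change -1.49 ± 0.14, edgeR adjusted p = 0.000812) and EP1 (-0.44 ± 0.12, adjusted p = 0.0188), and rose in F160 (1.11 ± 0.21, adjusted p = 0.0103). The smaller change in EP1 was lost in the joint model of all libraries (adjusted p = 0.551) and without EP1 high P 2 (adjusted p = 0.0680), EP1 low P 1 (adjusted p = 0.0615) or EP1 low P 2 (adjusted p = 0.0844). The rise in F160 had an adjusted p of 0.0854 in the joint model. In P415, me3 had 50.4, 34.7 and 31.2 FPKM at low P, against 60.9, 65.2 and 95.3 FPKM at high P. These groups did not overlap, yet the change of -0.90 ± 0.27 did not pass (adjusted p = 0.616). In P024, me3 had 19.8, 17.6 and 5.62 FPKM at low P, against 28.8, 32.5 and 4.76 FPKM at high P, so the libraries numbered 3 were the low ones at both supplies. F7, SF1, SM1 and F142 had overlapping groups, and their log2 fold changes ran from -0.18 in F7 to 0.49 in SM1.

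pdk1, whose product regenerates phosphoenolpyruvate, fell at low P in 3 genotypes and reached its highest levels in F7 at low P. In EP1, pdk1 was at 0.566, 0.761 and 0.216 FPKM at low P, against 4.40, 9.31 and 10.3 FPKM at high P. In F2, it was at 0.512, 0.527 and 1.07 FPKM at low P, against 12.4, 5.62 and 17.6 FPKM at high P. In F142, it was at 1.06, 3.52 and 7.76 FPKM at low P, against 61.2, 15.4 and 22.8 FPKM at high P. None of these groups overlapped, and every low P library of EP1 and F2 was under 1.1 FPKM. pdk1 fell in all 3, with log2 fold changes of -3.94 ± 0.46 in EP1 (edgeR, adjusted p = 0.000312), -4.02 ± 0.50 in F2 (adjusted p = 0.00173) and -2.90 ± 0.73 in F142 (adjusted p = 0.0116). In F7, pdk1 was instead at 30.9, 68.1 and 127 FPKM at low P, against 23.8, 3.50 and 3.29 FPKM at high P. The F7 groups did not overlap, and F7 high P 1 lay nearest to the low P libraries. The log2 fold change in F7 was 2.93 ± 0.92 (edgeR, adjusted p = 0.0585), and it passed with DESeq2 (adjusted p = 0.00118), in the joint model (adjusted p = 0.00931) and without the doubted F7 libraries (4.59 ± 0.68, adjusted p = 0.00208). SF1 had 0.673, 2.94 and 0.617 FPKM at low P, against 2.43, 4.16 and 7.57 FPKM at high P, and its log2 fold change of -1.61 ± 0.63 missed the threshold (adjusted p = 0.0572). SF1 passed without SF1 low P 2 (-2.78, adjusted p = 0.00211) or without SF1 high P 1 (-1.92, adjusted p = 0.0347). SM1 had a log2 fold change of -1.38 ± 0.61 (adjusted p = 0.125), and was called lower with DESeq2 or without SM1 high P 2. F160, P024 and P415 had overlapping groups, with log2 fold changes of 0.59, 0.22 and 0.89.

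rbcS Zm00001d052595, the more abundant of the Rubisco small subunit transcripts, was higher at low P in some genotypes and lower in another. In SF1, it was at 2.29, 2.37 and 1.66 FPKM at low P, against 0.290, 0.147 and 0.0486 FPKM at high P, where the libraries held only 5, 3 and 1 counts. In SM1, it was at 5.72, 6.51 and 4.40 FPKM at low P, against 0.451, 1.25 and 0.921 FPKM at high P. In F7, it was at 1.25, 0.976 and 1.35 FPKM at low P, against 28.8, 8.05 and 4.81 FPKM at high P. None of these groups overlapped, and F7 high P 1 was the highest library. rbcS Zm00001d052595 rose by 3.82 ± 0.46 on the log2 scale in SF1 (edgeR, adjusted p = 0.000238) and by 2.76 ± 0.35 in SM1 (adjusted p = 0.00219). It fell in F7, with a log2 fold change of -3.51 ± 0.71 (adjusted p = 0.0130), and of -2.30 ± 0.43 without the doubted F7 libraries (adjusted p = 0.00566). Without F7 low P 1 the adjusted p was 0.0523. In F2, the low P libraries (2.15, 1.77 and 1.54 FPKM) lay below those at high P (4.56, 4.58 and 2.31 FPKM), with a log2 fold change of -1.03 ± 0.32 (adjusted p = 0.0526). F142 was likewise close to the threshold, at -1.59 ± 0.58 (adjusted p = 0.0525), with overlapping groups. DESeq2 called both, with an adjusted p of 0.0238 in F2 and 0.0123 in F142. EP1 had a wide spread at both supplies, with 3.88, 13.8 and 5.23 FPKM at low P, against 1.69, 8.68 and 2.60 FPKM at high P. In each EP1 group the library numbered 2 was the highest, and the log2 fold change of 0.82 ± 0.66 did not pass (adjusted p = 0.346), although it passed without EP1 high P 2 (1.86, adjusted p = 0.0468). In P024, low P libraries had 2.20, 0 and 6.29 FPKM against 1.57, 4.59 and 3.41 FPKM at high P, and the value of 0 in P024 low P 2 was the only one for this gene.

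rbcS Zm00001d004894, the other small subunit gene, was lower at low P in 4 genotypes and rose in none of the 6 where it was tested. EP1 had 0.267, 1.47 and 0.674 FPKM at low P, against 1.95, 8.58 and 2.89 FPKM at high P. F2 had 0, 0.0475 and 0.0488 FPKM at low P, against 3.35, 1.94 and 1.59 FPKM at high P. F142 had 0.274, 0.297 and 0.192 FPKM at low P, against 2.13, 0.927 and 5.33 FPKM at high P. Every low P library of these genotypes lay below every high P library of the same genotype. In F7, it had 0.196, 0 and 0 FPKM at low P, against 18.8, 2.61 and 2.29 FPKM at high P, again without overlap. rbcS Zm00001d004894 fell in EP1 (log2 fold change -2.42 ± 0.70, edgeR adjusted p = 0.0235), F2 (-5.86 ± 0.65, adjusted p = 0.00121), F142 (-3.35 ± 0.70, adjusted p = 0.00500) and F7 (-6.76 ± 1.38, adjusted p = 0.0137). The sums behind the F2 and F7 values were 2 counts at low P against 115 at high P in F2, and 3 against 509 in F7. As ratios per counted read these were 0.0137 (95% interval for counting error 0.00165 to 0.0508) in F2 and 0.00698 (0.00144 to 0.0205) in F7, and 0.0387 (0.00781 to 0.117) in F7 without the doubted F7 libraries, where edgeR gave -4.58 ± 0.87 (adjusted p = 0.00595). The EP1 call was lost without EP1 high P 2 (-1.51, adjusted p = 0.0835), EP1 low P 1 (adjusted p = 0.0634) or EP1 low P 3 (adjusted p = 0.0750), and the F7 call without F7 low P 3 (adjusted p = 0.0503). P024 averaged 0.739 ± 0.466 FPKM at low P and 0.652 ± 0.0722 FPKM at high P, and P415 1.16 ± 0.285 FPKM at low P and 1.38 ± 0.566 FPKM at high P (SD, n = 3 each), and both had overlapping groups. In F160, SF1 and SM1 it did not pass the filter: 19, 7 and 14 counts stood at low P in F160, SF1 and SM1, against 22, 3 and 6 counts at high P.

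Within the counts of both rbcS genes, Zm00001d004894 made up a smaller share at low P in several genotypes. This share needs no scaling between libraries and was taken in the 43 libraries with at least 20 counts over both genes. In EP1 it averaged 8.78% ± 2.41 at low P and 50.8% ± 2.02 at high P (SD, n = 3 each). In F2 it averaged 1.81% ± 1.59 at low P and 36.5% ± 6.75 at high P, and in F142 16.0% ± 2.40 at low P and 39.7% ± 4.40 at high P. In F7 the share was 13.0% and 0% in the 2 low P libraries with enough counts, against 23.6% to 38.3% in the 3 at high P. F7 low P 2 was not among these, and F7 high P 1 had the highest share. The low P and high P libraries did not overlap in these 4 genotypes. P415 went the other way, at 65.7% ± 21.3 at low P and 37.1% ± 18.02 at high P, with overlapping libraries, and F160, SM1 and P024 overlapped as well. SF1 had no high P library with 20 counts, SM1 had 1 and F160 had 2. The difference was -4.86 points in SM1, -1.91 points in F160 and 2.12 points in P024. Averaged over 8 genotypes, the share was 12.6 percentage points lower at low P (difference -12.6 ± 23.0, SD over genotypes; lower in 6 of 8), with p = 0.00659 in a two-sided permutation test within genotypes. With P024 and the doubted F7 libraries left out the difference was -14.2 points (permutation p = 0.00632). The difference was -8.93 points (permutation p = 0.0898) when all libraries with at least 1 count were kept, and -9.06 points (permutation p = 0.148) without the libraries numbered 3.

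**Figure D2:**
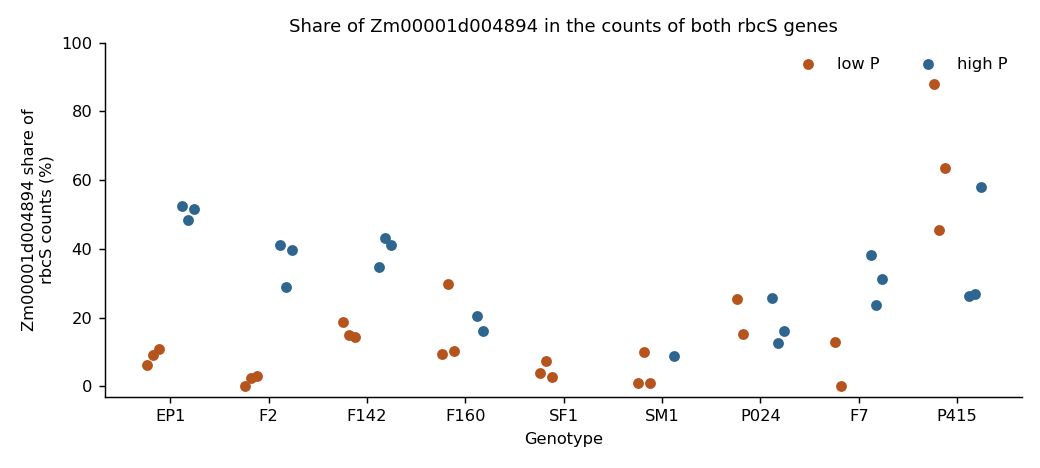
Share of Zm00001d004894 in the summed counts of both rbcS genes (percent), 1 point per library with at least 20 counts, low P left of high P within each genotype. The share is near 50% at high P and near 10% at low P in EP1, and the libraries of EP1, F2, F142 and F7 do not overlap between supplies.

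Read by genotype, members were called in 7 of 9 genotypes and in different sets. In EP1, 4 of 5 genes fell, where 42.8% of all tested features were called, and in F2 the same 4 (rbcS Zm00001d004894, ppc1, me3 and pdk1) of 5 fell, where 30.3% were called. In F7, 3 of 5 fell (both rbcS genes and ppc1) beside 22.9% of all features. Without the doubted F7 libraries these 3 fell and pdk1 rose, beside 32.1% of all features. In F142, 2 of 4 tested members fell (rbcS Zm00001d004894 and pdk1) beside 50.3% of all features. SF1 and SM1 each had 1 of 3 tested members called, the rise of rbcS Zm00001d052595, beside 54.9% of all features in SF1 and 33.0% in SM1. F160 had 1 of 3 called, the rise of me3, beside 22.8%. P415 had 0 of 5 members called by edgeR and 0 by DESeq2, with 1 and 2 of 5 at an unadjusted p under 0.05, beside 0.204% of all features. P024 had 0 of 5 called by edgeR and by DESeq2, with 0 of 5 at an unadjusted p under 0.05 by either. There 0.0% of all features were called by edgeR, with 269 features at an unadjusted p under 0.05, and 2 features were called by DESeq2. Leaving out both P024 libraries numbered 3, which stood apart in me3 and pdk1, also gave 0 of 5. Over the 45 combinations of gene and genotype, 38 passed the filter on low values, 16 were called, 13 of them lower and 3 higher at low P. A pooled share of all features was not counted beside these. The lower calls lay in EP1, F2, F142 and F7. Of all features called there, 5453 fell and 5300 rose in EP1, and 3557 fell and 4032 rose in F2. In F142, 6189 fell and 6514 rose, and in F7, 2951 fell and 2660 rose. The members that passed had enough counts in at least 1 supply, and in F142, SF1 and SM1 their share of calls was close to or below that of all features.

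**Figure D3:**
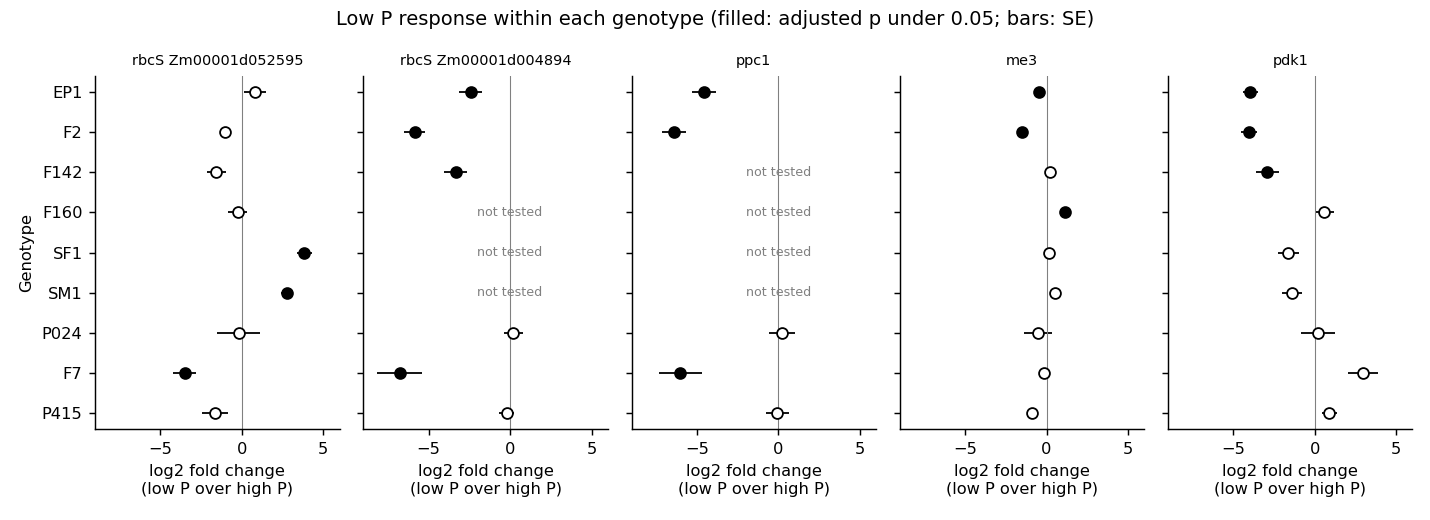
Log2 fold change of low P over high P of each gene in each genotype (points; bars are the approximate SE; filled points have an adjusted p under 0.05 in edgeR). The falls of rbcS Zm00001d004894, ppc1 and pdk1 in EP1 and F2 stand beside the rises of rbcS Zm00001d052595 in SF1 and SM1, and gene and genotype pairs with too few counts are marked as not tested.

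Averaged over the 9 genotypes in a joint model of all 54 libraries, 3 of 5 genes were lower at low P, where 38.7% of all features were called. The average log2 fold change was -1.79 ± 0.40 for rbcS Zm00001d004894 (edgeR, adjusted p = 0.000364), -1.92 ± 0.45 for ppc1 (adjusted p = 0.000615) and -1.01 ± 0.29 for pdk1 (adjusted p = 0.00407). It was -0.08 ± 0.30 for rbcS Zm00001d052595 (adjusted p = 0.967) and -0.17 ± 0.14 for me3 (adjusted p = 0.376), neither of which passed. A two-sided permutation test within genotypes, on log2(CPM + 0.5), which understates changes of low genes, made 5 tests. The mean difference was -0.99 for rbcS Zm00001d004894 (permutation p = 9e-05, lower in 6 of 9 genotypes), -1.18 for ppc1 (p = 0.00032, lower in 8 of 9) and -1.04 for pdk1 (p = 0.0204, lower in 6 of 9). It was -0.20 for rbcS Zm00001d052595 (permutation p = 0.509) and -0.21 for me3 (p = 0.189). The ppc1 mean rested on EP1 (-2.31), F2 (-3.71) and F7 (-3.91). In the remaining genotypes its difference ran only from -0.46 in SF1 to 0.28 in SM1, with -0.02 in F142. ppc1 was lower in 5 of 9 genotypes without the libraries numbered 1 and in 6 of 9 without those numbered 2. For pdk1 and rbcS Zm00001d052595 the average changes had opposite signs in the count tables. A difference between tables was not tested, and table and genotype cannot be told apart. The averages of the second table include the doubted F7 libraries. In the first table alone pdk1 had an average log2 fold change of -2.21 ± 0.31 (adjusted p = 5.67e-07), and in the second alone of 1.36 ± 0.55 (adjusted p = 0.208). rbcS Zm00001d052595 had 0.75 ± 0.27 (adjusted p = 0.0185) in the first and -1.79 ± 0.62 (adjusted p = 0.131) in the second. rbcS Zm00001d004894 was lower in both, at -1.59 ± 0.55 (adjusted p = 0.0143) in the first and -2.25 ± 0.54 (adjusted p = 0.0270) in the second, and ppc1 had -1.94 ± 0.58 (adjusted p = 0.00511) and -1.94 ± 0.61 (adjusted p = 0.0954). Both second-table averages rested on F7. Within genotypes rbcS Zm00001d004894 had -6.76 in F7, 0.21 in P024 and -0.21 in P415, and ppc1 had -6.01, 0.24 and -0.05. The second-table averages were not fitted without the doubted F7 libraries. By permutation there, rbcS Zm00001d004894 had -1.11 (p = 0.0424, adjusted over the 5 genes 0.0707). With P024 and the doubted F7 libraries left out, the same 3 genes passed, at -1.79 for rbcS Zm00001d004894, -2.09 for ppc1 and -0.97 for pdk1. Of all features, 48.7% were called there. Without the libraries numbered 1, rbcS Zm00001d004894 averaged -1.43 and did not pass, with an SE of 2650. Groups of SF1 and F7 were then all at 0, so its average is not reliable in that fit. Its permutation difference there was -0.85 (permutation p = 0.00411). The pdk1 call was also lost without the libraries numbered 1, at -0.56 ± 0.33 (adjusted p = 0.252), and its permutation p was then 0.214. That p was 0.0576 without the libraries numbered 3 and 0.0514 with P024 and the doubted F7 libraries left out.

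The responses differed between genotypes for all 5 genes. In the genotype by P interaction test of the joint model, which spans both tables, the adjusted p was 0.000811 for ppc1, 0.0125 for me3, 0.000153 for pdk1, 0.000181 for rbcS Zm00001d052595 and 0.000114 for rbcS Zm00001d004894, where 42.3% of all features passed. The me3 value was the least stable and missed the threshold without the libraries numbered 1 (adjusted p = 0.201) or numbered 2 (adjusted p = 0.514) and with limma-voom (adjusted p = 0.114). Without the libraries numbered 1, rbcS Zm00001d052595 missed it too (adjusted p = 0.0987). Within the first table alone all 5 genes passed, with adjusted p of up to 0.00453, beside 58.2% of all features. All 5 also passed with P024 and the doubted F7 libraries left out, with adjusted p of up to 0.000953, beside 61.5% of all features. Within the second alone rbcS Zm00001d004894 passed (adjusted p = 0.0206), beside 2.77% of all features. There the adjusted p was 0.0599 for ppc1, 0.933 for me3, 0.536 for pdk1 and 0.483 for rbcS Zm00001d052595. Set against the mean of the other 8 genotypes, the response of F2 was lower for 4 of 5 genes where 4.86% of all features were called, with differences in log2 fold change of -4.53 ± 1.28 for rbcS Zm00001d004894 (adjusted p = 0.0288), -5.00 ± 1.44 for ppc1 (adjusted p = 0.0332), -1.46 ± 0.44 for me3 (adjusted p = 0.0454) and -3.36 ± 0.97 for pdk1 (adjusted p = 0.0345). EP1 differed for pdk1 alone, with a difference of -3.30 ± 0.98 (adjusted p = 0.0386; 5.09% of all features). rbcS Zm00001d052595 responded more positively in SF1, by 4.38 ± 1.04 (adjusted p = 0.00712; 6.39% of all features), and in SM1, by 3.20 ± 0.88 (adjusted p = 0.0212; 7.04% of all features). F7 differed for 4 of 5 genes beside 32.8% of all features, lower for rbcS Zm00001d052595 (-3.86 ± 0.89, adjusted p = 0.000805), rbcS Zm00001d004894 (-5.61 ± 1.21, adjusted p = 0.000386) and ppc1 (-4.60 ± 1.28, adjusted p = 0.00465), and higher for pdk1 (4.45 ± 0.99, adjusted p = 0.000554). The ppc1 difference of F7 shrank to -2.47 without F7 high P 1 (adjusted p = 0.146). With P024 and the doubted F7 libraries left out, F7 was set against the other 7 genotypes and 39.3% of all features were called. The difference was then -2.70 ± 0.84 for rbcS Zm00001d052595 (adjusted p = 0.00939) and 6.36 ± 1.12 for pdk1 (adjusted p = 2.18e-05), while -3.21 ± 1.35 for rbcS Zm00001d004894 (adjusted p = 0.0575) and -3.36 ± 1.51 for ppc1 (adjusted p = 0.0781) did not pass. No member passed in F160 (0.899% of all features), F142 (5.3%), P024 (4.88%) or P415 (2.39%). In F160, me3 passed with the replicate number as a block, where it was higher by 1.45 ± 0.29 (adjusted p = 0.00887, beside 2.68% of all features), and without the libraries numbered 3 (1.86 ± 0.25, adjusted p = 0.000929). Apart from the higher response of pdk1 in F7, each of these differences (10 in all) was lost when the libraries of 1 or more replicate numbers, or P024 with the doubted F7 libraries, were left out. Calls were also gained when P024 and the doubted F7 libraries were left out. These were me3 in F160 (1.43, adjusted p = 0.000798) and P415 (-0.90, adjusted p = 0.0150), pdk1 in F142 (-2.23, adjusted p = 0.0492), and rbcS Zm00001d004894 (3.72, adjusted p = 0.0347) and ppc1 (3.76, adjusted p = 0.0392) in SM1. The share of all features called then ran from 7.38% in F160 to 16.5% in F142 among these 4 genotypes.

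Levels at high P also differed between genotypes. Among the 6 genotypes of the first table all 5 genes passed an F-test over the high P means, with adjusted p of 1.47e-05 for ppc1, 1.03e-05 for me3, 0.00725 for pdk1, 3.1e-05 for rbcS Zm00001d052595 and 2.7e-06 for rbcS Zm00001d004894, where 89.2% of all features passed. The pdk1 call was lost without the libraries numbered 1 (adjusted p = 0.388). ppc1 was highest in F2 (2.11 ± 0.109 FPKM, SD, n = 3), whose libraries lay above all those of EP1 (0.950 ± 0.745 FPKM), and lowest in F142 (0.0325 ± 0.00555 FPKM). rbcS Zm00001d052595 was lowest in SF1 (0.162 ± 0.121 FPKM), without overlap with its neighbour in order, SM1 (0.874 ± 0.402 FPKM). The order above it, from F160 (1.91 ± 1.32 FPKM) over F2 (3.82 ± 1.30 FPKM) and F142 (4.08 ± 3.07 FPKM) to EP1 (4.32 ± 3.80 FPKM), was of overlapping neighbours. rbcS Zm00001d004894 ran from 0.0608 ± 0.105 FPKM in SF1 and 0.0962 ± 0.0358 FPKM in SM1 to 4.47 ± 3.59 FPKM in EP1, so both rbcS transcripts were lowest in SF1 and SM1. me3 lay at 7.08 to 8.29 FPKM on average in F142, F2, EP1 and SF1 and at 4.11 ± 0.921 FPKM in F160 and 3.48 ± 1.05 FPKM in SM1. pdk1 ran from 4.72 ± 2.61 FPKM in SF1 to 33.1 ± 24.6 FPKM in F142, with every pair of neighbours overlapping. Among the genotypes of the second table, 3 of 5 genes passed beside 28.6% of all features, with adjusted p of 0.0166 for ppc1, 0.0226 for me3 and 0.0103 for rbcS Zm00001d004894. These calls were lost without the doubted F7 libraries, with adjusted p of 0.354 for ppc1, 0.0556 for me3 and 0.130 for rbcS Zm00001d004894. me3 in P415 (73.8 ± 18.7 FPKM at high P) lay above all libraries of P024 (22.0 ± 15.0 FPKM) and F7 (16.0 ± 3.13 FPKM). me3 was at 4.76 to 95.3 FPKM over the second table and at 2.17 to 9.85 FPKM over the first, and table and genotype cannot be told apart there.

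Among replicates of a group, the 2 rbcS transcripts were high in the same libraries. Deviations of log2(CPM + 0.5) from the group mean over the 54 libraries correlated with Pearson r = 0.763 and Spearman rho = 0.718 for the rbcS genes (both with a permutation p of 3e-05 and an adjusted p of 0.0003 over 10 pairs of genes), and with r = 0.789 without the 2 libraries farthest from the median. me3 and pdk1 correlated with r = 0.593 and rho = 0.575 (adjusted permutation p of 0.0035 and 0.0037), and with r = 0.50 without P024 low P 3 and P024 high P 3. With P024 and the doubted F7 libraries left out, their r was 0.484 (adjusted permutation p = 0.0815), and in the first table alone 0.371 (adjusted permutation p = 0.307). rbcS Zm00001d004894 and ppc1 correlated with r = 0.606 and rho = 0.453 (adjusted permutation p of 0.0116 and 0.0240), which became r = 0.440 without EP1 high P 2 and F7 high P 1. With P024 and the doubted F7 libraries left out, their r was 0.381 (adjusted permutation p = 0.0874). The other 7 pairs did not pass, among them rbcS Zm00001d052595 with ppc1 (r = 0.469, adjusted permutation p = 0.0790) and me3 with ppc1 (r = -0.26, adjusted permutation p = 0.269). The pairs share libraries and depth, and many values of ppc1 and rbcS Zm00001d004894 rest on few counts.

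**Figure D4:**
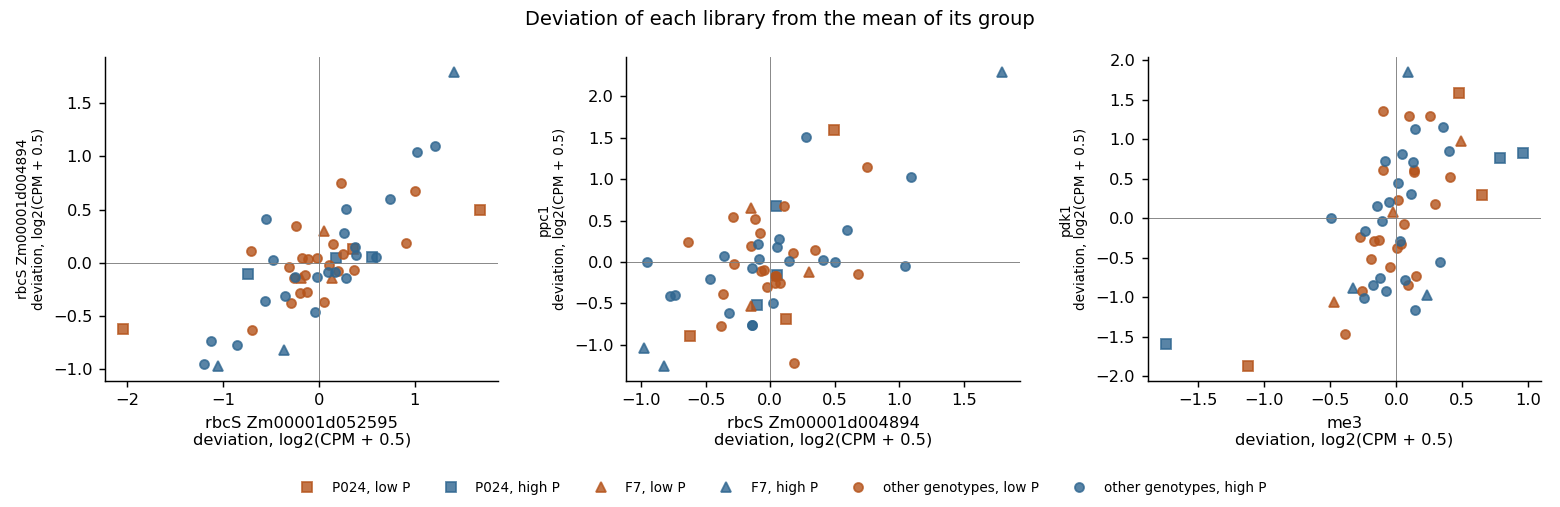
Deviation of each library from the mean of its genotype and supply, in log2(CPM + 0.5), for 3 pairs of genes; squares are P024, triangles F7 and circles the other genotypes, orange low P and blue high P. The rbcS pair runs along a diagonal, and in the me3 and pdk1 panel the P024 libraries numbered 3 lie far to the lower left.

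Over all 54 libraries, differences between groups included, the 2 features most alike each gene in log2(CPM + 0.5) were taken among 24446 features with a mean of at least 1 CPM, as a description with no test. Those most alike me3 were Zm00001d001857 (Pearson r = 0.90) and Zm00001d007420 (r = 0.90). Those most alike rbcS Zm00001d004894 were Zm00001d008706 (r = 0.85) and Zm00001d027488 (r = 0.84). pdk1 was most like Zm00001d020953 (r = 0.82) and Zm00001d049768 (r = 0.82), ppc1 most like Zm00001d046786 (r = 0.80) and Zm00001d012068 (r = 0.77), and rbcS Zm00001d052595 most like Zm00001d003429 (r = 0.77) and Zm00001d041819 (r = 0.76). The files name none of these 10 features. Between the genes themselves the same measure ran from -0.21 for rbcS Zm00001d052595 with pdk1 to 0.72 for rbcS Zm00001d004894 with ppc1, and was 0.64 for the rbcS pair.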

How the data were processed

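Total RNA of maize roots was turned into 54 sequencing libraries with an NEBNext kit, per the labels' protocols. The submitters' processing notes name fastp, HISAT2, HTSeq and the B73 RefGen_v4 build. Their versions, the strand setting and the treatment of reads with several matches are not given in the sources. The authors deposited raw counts per gene in 2 tables and FPKM in another 2. Each deposited FPKM above 0 (1583165 of 1583165) equalled its count scaled by the deposited gene length and the library total within a relative tolerance of 0.001, so FPKM describe levels and counts entered the tests.

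Within each genotype, 3 low P libraries were set against 3 high P libraries by edgeR's quasi-likelihood test (edgeR 4.0.16, limma 3.58.1, R 4.3.3), with filterByExpr and TMM. P-values were adjusted by Benjamini-Hochberg over all tested features, and 0.05 was the threshold. A joint model of 18 groups gave the average response, the interaction and each genotype against the other 8. The SE of a log2 fold change was derived from its F statistic and is approximate. An exact permutation test of 3 against 3 cannot go below 0.10, so single genes were also tested by permuting supply within genotypes in 100000 draws (smallest possible p 1e-05). The models were tested on simulated counts. Alternatives were RLE and total count scaling, no filter, DESeq2 1.42.0, limma-voom, a replicate block, other pseudocounts, each table alone and leaving out libraries. Leaving out F7 high P 1 alone, or both P024 libraries numbered 3, was chosen after seeing the data. Low P and high P libraries of the same number deviated together from their group means, with all 3 correlations over 0.1, in F160 (0.103 to 0.192), P024 (0.413 to 0.780) and P415 (0.124 to 0.293); the pairing comes from these data, since the labels do not say what a number stands for. In P024 the number was not what set the pairs apart. There, numbers 1 and 2 also correlated across supplies (0.354 and 0.567), and number 3 with either of them at -0.715 to -0.477. Fitting the pairs changed no call of a member between supplies within F160, P024 and P415. With the block, me3 in F160 differed from the other 8 genotypes (edgeR adjusted p = 0.00887, against 0.104 without the block).

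The 5 genes are always named, and for each the 2 features most alike among those with a mean of at least 1 CPM. The members, the plastid list and the tests were chosen with earlier results of these data known. Nuclear markers of cell types were not used here, since the files pair nuclear identifiers with no names.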

Additional observations from a re-analysis of the deposited data

Results flagged for a closer look

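The low P response of each of the 5 genes differed between genotypes by a test of the difference itself, an interaction test in edgeR's joint model of all libraries. The adjusted p was 0.000811 for ppc1, 0.0125 for me3, 0.000153 for pdk1, 0.000181 for rbcS Zm00001d052595 and 0.000114 for rbcS Zm00001d004894. Of all features, 42.3% passed the same test. me3 missed the threshold without the libraries numbered 1 (adjusted p = 0.201) or 2 (adjusted p = 0.514) and with limma-voom (adjusted p = 0.114). rbcS Zm00001d052595 missed it without the libraries numbered 1 (adjusted p = 0.0987).

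Single genotypes also differed from the mean response of the other 8 by a contrast of the same model, and 11 such differences passed. The share of all features called in the same contrast was 5.09% in EP1, 4.86% in F2, 6.39% in SF1, 7.04% in SM1 and 32.8% in F7. When the libraries of 1 replicate number were left out, 2 to 6 differences passed. The higher response of pdk1 in F7 passed in each of these fits and with P024 and the doubted F7 libraries left out, and each of the other 10 was lost in at least 1 of them. The response of EP1 was lower for pdk1 (difference in log2 fold change -3.30). The response of F2 was lower for rbcS Zm00001d004894 (-4.53), ppc1 (-5.00), me3 (-1.46) and pdk1 (-3.36). For rbcS Zm00001d052595 the response was higher in SF1 (4.38) and SM1 (3.20) and lower in F7 (-3.86). F7 was also lower for rbcS Zm00001d004894 (-5.61) and ppc1 (-4.60) and higher for pdk1 (4.45).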

How the results depend on the processing

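Of 1319 alternatives over 129 results, 1160 were labelled the same, 68 lost a call, 32 gained one, 44 turned the direction and 15 moved a count of called genes. The same meant an unchanged side of the threshold and, where a result has one, an unchanged direction. Interaction and level tests have no direction. Among the same were 104 counts of called genes, for which small moves were allowed. A turned direction was labelled so whether or not a call changed with it. Where no value is named as moving with a change, the cause was not tested. For rbcS Zm00001d052595 the average response was 0.0701 with P024 and the doubted F7 libraries left out, 0.0356 without F7 high P 1 and 0.75 in the first table alone, and between -0.31 and 0.15 leaving out 1 replicate number. That of rbcS Zm00001d004894 lay between -2.27 and -1.43 (adjusted p near 1 without number 1, where groups of SF1 and F7 are all at 0) and that of pdk1 between -1.44 and -0.56 (adjusted p = 0.252 without number 1). In the second table alone ppc1 averaged -1.94 (adjusted p = 0.0954) and pdk1 1.36, and in the first me3 averaged 0.0014. By permutation rbcS Zm00001d052595 had 0.48 in the first table and -1.57 in the second (p = 0.0086), and pdk1 had 1.39 in the second, -1.04 (p = 0.0514) with P024 and the doubted F7 libraries left out, and -1.39 to -0.72 leaving out a number.

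The interaction's adjusted p in the second table alone was 0.483 for rbcS Zm00001d052595, 0.0599 for ppc1, 0.933 for me3 and 0.536 for pdk1, and 0.114 for me3 with limma-voom; leaving out a number it ran from 0.000838 to 0.0987 for rbcS Zm00001d052595 and from 0.000122 to 0.514 for me3. The adjusted p of level differences, taken over low P means, was 0.477 for ppc1 in the first table, and 0.139 for ppc1 and 0.133 for me3 in the second. Without the doubted F7 libraries it was 0.130 for rbcS Zm00001d004894, 0.354 for ppc1 and 0.0556 for me3. Leaving out a number it ran from 0.00726 to 0.388 for pdk1 in the first table, and in the second from 0.0381 to 0.801 for rbcS Zm00001d052595, 0.0320 to 0.310 for rbcS Zm00001d004894, 0.0309 to 0.679 for ppc1 and 0.00343 to 0.178 for me3. The rbcS share differed by -8.93 points with no minimum beyond 1 count and by -15.7 to -9.06 leaving out a number.

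Counts of called genes ran over libraries left out from 2 to 4 in EP1, 1 to 2 in SF1 and in SM1, and 1 to 4 in F7. SF1 had 2 with total count scaling, with no filter and with the replicate block, SM1 had 2 with DESeq2, and F160 had 0 in the joint model. Of the differences from the other 8 genotypes, 2 to 6 passed when a number was left out, and me3 in F160 was gained with the block (1.45). For ppc1, the remaining F2 low P libraries were at 0 without number 1, and the remaining F142 low P libraries without number 3. The fitted sizes of ppc1 differences are therefore not reliable in these fits, where the SE was 3907 for F7 without number 1. Several values that never passed turned direction: ppc1 in P024 (-0.17 with the replicate block, -0.76 without both libraries numbered 3, -1.14 to 0.63 leaving out 1 library), pdk1 in P024 (-0.0461 with the block, -0.82 to 0.73), rbcS Zm00001d004894 in P024 (-0.18 without both libraries numbered 3, -0.14 to 0.57) and P415 (-0.49 to 0.10), rbcS Zm00001d052595 in F160 (-0.71 to 0.25) and P024 (-1.33 to 0.36), pdk1 in F160 (-0.39 to 1.05), me3 in F7 (-0.50 to 0.0649) and ppc1 in P415 (-0.45 to 0.46). Against the other 8 these were me3 in F7 (0.0409 with total count scaling, 0.0324 with P024 and the doubted F7 libraries left out, 0.0512 without F7 low P 2, -0.245 to 0.20 leaving out a number), ppc1 in SF1 (-0.18 without F7 high P 1, -0.58 to 4.45) and F142 (-1.79 to 3.27), pdk1 in SF1 (-1.62 to 0.35) and SM1 (-0.92 to 0.33), and rbcS Zm00001d052595 in F160 (-0.74 to 0.25) and P024 (-1.17 to 0.97). Correlations turned to 0.0409 for rbcS Zm00001d052595 with pdk1 in the first table, to 0.0424 and 0.0231 for rbcS Zm00001d004894 with me3 and to 0.0504 and 0.0248 for ppc1 with me3, with P024 and the doubted F7 libraries left out and in the first table, and to 0.0227 for ppc1 with pdk1 with 1 CPM added.

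With the replicate number as a block the average response was -1.76 for rbcS Zm00001d004894, -1.85 for ppc1 and -0.98 for pdk1. The same 3 genes passed, beside 43.5% of all features. In genotypes where not all 3 same-number correlations were over 0.1, the block raised the members called to 5 in EP1, 5 in F2 and 2 in SF1. These stood beside 38.4% of all features in EP1, 27.7% in F2 and 50.9% in SF1. The block left 2 in F142 (40.1%), 1 in SM1 (22.7%) and 3 in F7 (16.9%). F2 missed the limit, though its same-number correlations (0.0683 to 0.108) lay above those of differing numbers (up to 0.0192). In P024 those of differing numbers ran up to 0.567. Total count scaling moved the median average log2 fold change of all features by -0.07. Depth limits ppc1 and rbcS Zm00001d004894, which 31 and 27 of 54 libraries held at under 10 counts.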
